A study of Rattus norvegicus with 6 samples.

Results

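The miRNAs described here are the mature products of 6 miRNA genes that lie inside the Hox gene clusters, namely miR-10a, miR-10b, miR-196a, miR-196b, miR-196c and miR-615. Every rat miRNA listed under one of these names, with either arm of its hairpin, was taken, which gave 11 of the 753 known mature miRNAs in the table. They were measured by small RNA sequencing of the lumbar spinal cord from 3 rats with bone cancer pain (BCP) and 3 sham-operated rats, 1 library per rat. The BCP rats had received living Walker 256 cells, a rat mammary carcinoma line, in the left tibia, and the sham-operated rats had received heat-killed cells of the same line, so both groups carried a bone injection. The cord was taken on day 14 from the injected side of the lumbar enlargement after removal of the meninges. The labels give the rats as Wistar, the paper as female Sprague Dawley, and neither gives a genetic alteration.

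Hox genes encode transcription factors that give cells along the head-to-tail axis their regional identity, and they are switched on in the order in which they sit in their clusters. The miRNA genes between them are transcribed with their neighbours and target Hox mRNAs among others, and they are used as marks of the hindbrain, spinal cord and trunk, as forebrain tissue has little of them. A miRNA hairpin is cut into a 5p and a 3p arm, one of which usually enters the silencing complex, and bases 2 to 8 from the 5′ end of the mature strand, the seed, pair with target mRNAs.

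In the RefSeq annotation of the rat assembly GRCr8, used here for names and gene order only, miR-10a lay in the HoxB cluster on chromosome 10 between Hoxb4 and Hoxb5. The gene of miR-10b lay in HoxD on chromosome 3 within the annotated span of Hoxd4. The 3 miR-196 genes lay further toward the other end of their clusters. miR-196b was between Hoxa9 and Hoxa10 on chromosome 4, miR-196a between Hoxc9 and Hoxc10 on chromosome 7, and miR-196c between Hoxb9 and Hoxb13 on chromosome 10. miR-615 lay within the spans of Hoxc5 and Hoxc6 on chromosome 7. RefSeq held mature sequences for 10 of the 11 members, of 21 to 23 nucleotides, and none for miR-196a-3p.

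**Figure D1:**
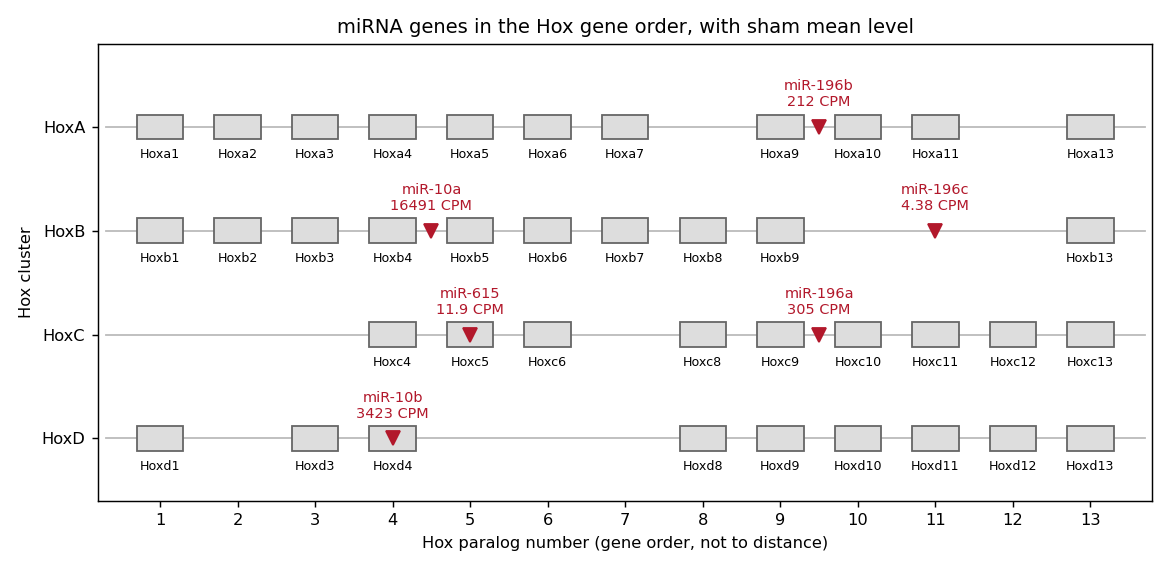
The 4 Hox clusters drawn by gene order, with Hox paralog number on the x axis and the cluster on the y axis. Red triangles mark the miRNA genes, and the number is the mean level of the 5p arm (of the only listed arm for miR-615) in the sham-operated group, in normalised CPM (read counts scaled to a common library size). The pair beside or within the paralog 4 genes, miR-10a and miR-10b, stood at 16491 and 3423 CPM, and miR-196a and miR-196b beside the paralog 9 genes at 305 and 212 CPM. The third miR-196 gene, miR-196c, also beside a paralog 9 gene, stood at 4.38 CPM.

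The 5p strands of the miR-10 pair are shown because they carry nearly all reads of the group, with the seed in capitals. The prefix rno, for rat, is left out after the sequences are named.
rno-miR-10a-5p: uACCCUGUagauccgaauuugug
rno-miR-10b-5p: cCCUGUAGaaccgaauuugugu
Aligned over 21 nucleotides they differed at 1 position, U12A, counted from the 5′ end of miR-10a-5p. The annotated miR-10b-5p starts 2 nucleotides further along, so by this annotation the 2 strands have different seeds, ACCCUGU and CCUGUAG, and the second seed sits inside miR-10a-5p from position 4. How reads that match both genes were assigned, or reads of miR-10b that begin at the position where miR-10a-5p begins, is not given in the sources used here. The levels of miR-10a-5p and miR-10b-5p, and every ratio or share that holds either, are uncertain to that extent.

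The 5p strands of the miR-196 genes are shown because they differ at a single base and share 1 seed, AGGUAGU.
rno-miR-196a-5p: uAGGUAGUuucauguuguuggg
rno-miR-196b-5p: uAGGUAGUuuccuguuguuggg
rno-miR-196c-5p: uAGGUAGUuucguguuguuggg
Counted from the 5′ end of miR-196a-5p, the substitutions were A12C in miR-196b-5p and A12G in miR-196c-5p. Of the 688 listed miRNAs with a RefSeq sequence, only these 3 had this seed at bases 2 to 8. How reads that fit more than 1 of the 3, or carry an error at the base that differs, were assigned is likewise not given, and the counts of miR-196c-5p were 1.12% to 1.51% of those of miR-196a-5p over the 6 libraries. The level of miR-196c-5p and what is computed from it below are therefore uncertain as measures of the HoxB gene.

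The remaining strands with appreciable counts are the 3p arms of the miR-10 pair and the listed strand of miR-615, which has no arm suffix in the table.
rno-miR-10a-3p: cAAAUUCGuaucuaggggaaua
rno-miR-10b-3p: aCAGAUUCgauucuaggggaa
rno-miR-615: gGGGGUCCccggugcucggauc
The 3p arms of miR-10a and miR-10b differed at 3 of 20 aligned positions, A3G, U9A and A10U, counted from the 5′ end of miR-10a-3p, and had different seeds. None of these 3 seeds was shared by another listed miRNA with a sequence.

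The libraries held between 13464349 and 23770677 counts, the largest being that of BCP rat 1. A floor of 3 counts, which covers counting error only, came to 0.127 to 0.221 CPM over the 6 libraries. Of the 5 neuronal markers all were present, with miR-9a-5p at 62557 ± 4418 CPM and miR-124-3p at 2753 ± 39.2 CPM (SD, n = 3 sham-operated rats), and all 3 oligodendrocyte markers were present too. Of the blood markers, the red cell miRNAs miR-451-5p, miR-144-3p and miR-144-5p were listed at 0 in every library. miR-223-3p, a miRNA of myeloid cells, was the only tested blood marker and was called, with 5.57 to 7.93 CPM in the BCP group and 0.658 to 2.31 CPM in the sham-operated group (log2 fold change 2.13; edgeR's quasi-likelihood test, adjusted p = 0.0190). The summed level of the 7 epithelial markers also lay higher, at 34.6 to 45.1 CPM in the BCP group and 22.1 to 24.7 CPM in the sham-operated group, and 1 of the 5 tested, miR-200c-3p, was called. The gap in this sum lay mostly in miR-203a-3p, at 16.6 and 7.08 CPM in the BCP and sham-operated means, and miR-200c-3p, at 11.6 and 3.73 CPM. miR-205 was at 9.32 CPM in both means, and miR-200b-3p at 1.89 and 2.23 CPM. The summed levels of the neuronal, oligodendrocyte, vascular, muscle and sensory ganglion lists overlapped between the groups, with 0 markers called in each. The part of these cells in the results below was not tested, and in bulk tissue fewer cells of a type and less RNA per cell cannot be told apart.

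The 11 members ran from 0.160 CPM for miR-196a-3p to 16491 CPM for miR-10a-5p in the mean of the sham-operated group. They made up 2.30% ± 0.168 of all counts in the BCP group and 2.09% ± 0.203 in the sham-operated group (SD, n = 3 rats each), and the groups overlapped. Reads from the HoxB cluster, nearly all of them miR-10a-5p, took 79.2% to 82.1% of the member reads of a library. HoxD took 15.9% to 17.99%, HoxC 1.11% to 1.75% and HoxA 0.889% to 1.10%. These bounds are over the 6 libraries, and the order of the clusters was the same in each.

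rno-miR-10a-5p, the major strand of miR-10a, ranked 15th of 753 by its reads. BCP rats 1 to 3 gave normalised levels of 16957, 18562 and 20250 CPM, and sham-operated rats 1 to 3 gave 16148, 15538 and 17788 CPM. The highest value was that of BCP rat 3, and sham-operated rat 3 stood above BCP rat 1, so the groups overlapped. Group means were 18590 ± 1646 CPM in the BCP group and 16491 ± 1163 CPM in the sham-operated group (SD, n = 3 rats each). BCP against sham, this was a log2 fold change of 0.17 with a standard error of 0.0997 and a 95% interval from -0.06 to 0.40, which did not pass (adjusted p = 0.538, edgeR's quasi-likelihood test over 459 miRNAs). On the linear scale this interval ran from 0.961-fold to 1.32-fold.

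rno-miR-10b-5p, the major strand of miR-10b, ranked 43rd and varied least among the tested members. BCP rats 1 to 3 stood at 3522, 3510 and 3795 CPM, and sham-operated rats 1 to 3 at 3416, 3418 and 3434 CPM. Every BCP rat stood above every sham-operated rat, by little. The spread among sham-operated rats was 0.294% of their mean, below the 0.419% that counting error alone would give on average. The difference, 0.08 on the log2 scale with a 95% interval from -0.12 to 0.27, did not pass (adjusted p = 0.742, same edgeR fit). With scaling to total counts in place of TMM, the edgeR normalization used here, the groups overlapped, at 3493 to 3742 CPM in the BCP group and 3313 to 3628 CPM in the sham-operated group. With edgeR's RLE method, another scaling, the sham-operated rats stood at 3372 to 3560 CPM. The small spread given above for the sham-operated rats thus held with TMM only.

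**Figure D2:**
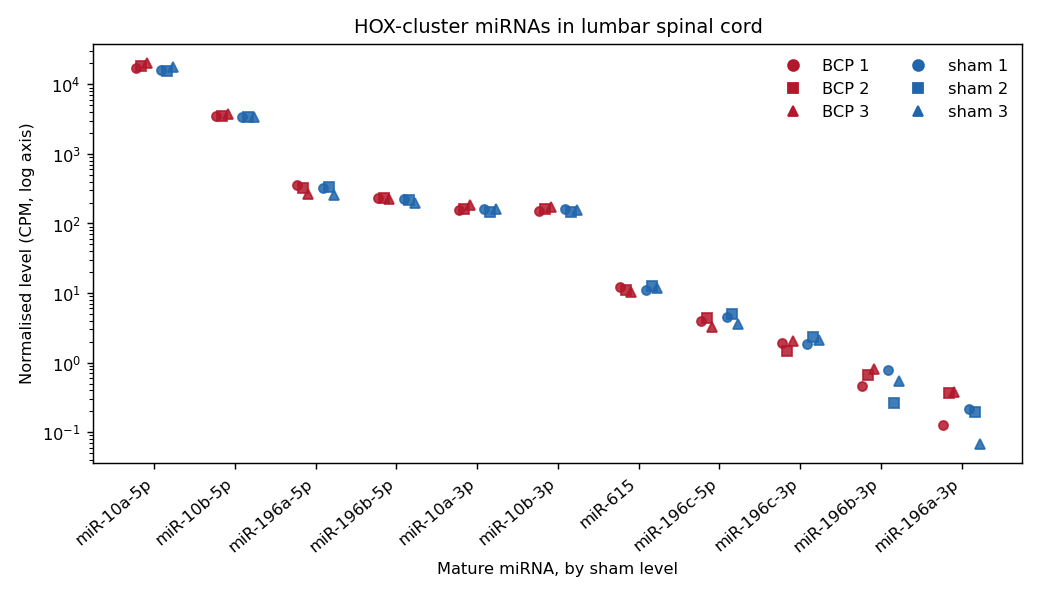
Normalised level in CPM on a log axis for the 11 members, ordered by sham level on the x axis, with 1 point per library, red for BCP and blue for sham-operated rats. miR-10a-5p and miR-10b-5p stood above all others in each library, and the symbols of the groups lay close together for every member above 1 CPM.

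The 3p arms, the minor strands of the miR-10 hairpins, were present at nearly the same level for both genes although the 5p arms were not. For rno-miR-10a-3p, BCP rats 1 to 3 gave 156, 163 and 187 CPM, and sham-operated rats 1 to 3 gave 162, 148 and 161 CPM. For rno-miR-10b-3p the same BCP rats gave 149, 161 and 173 CPM, and the same sham-operated rats 163, 148 and 156 CPM. The groups overlapped for both, and the highest rat was BCP rat 3 for both. Within a library there were 0.925 to 1.01 reads of miR-10b-3p per read of miR-10a-3p, so the levels of the 2 strands overlapped. The 5p arms, in contrast, differed by 4.55 to 5.34 reads of miR-10a-5p per read of miR-10b-5p.

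The arm ratio was higher for miR-10a than for miR-10b in all 6 libraries. For each read of miR-10a-3p, BCP rats 1 to 3 gave 109, 114 and 109 reads of miR-10a-5p, and sham-operated rats 1 to 3 gave 99.6, 105 and 111. For miR-10b the same BCP rats gave 23.6, 21.9 and 21.997 reads of the 5p arm per read of the 3p arm, and the same sham-operated rats 20.9, 23.1 and 22.003. The lowest ratio of miR-10a, that of sham-operated rat 1, stood far above the highest of miR-10b. The part of the offset annotated start of miR-10b-5p in this gap was not tested.

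**Figure D3:**
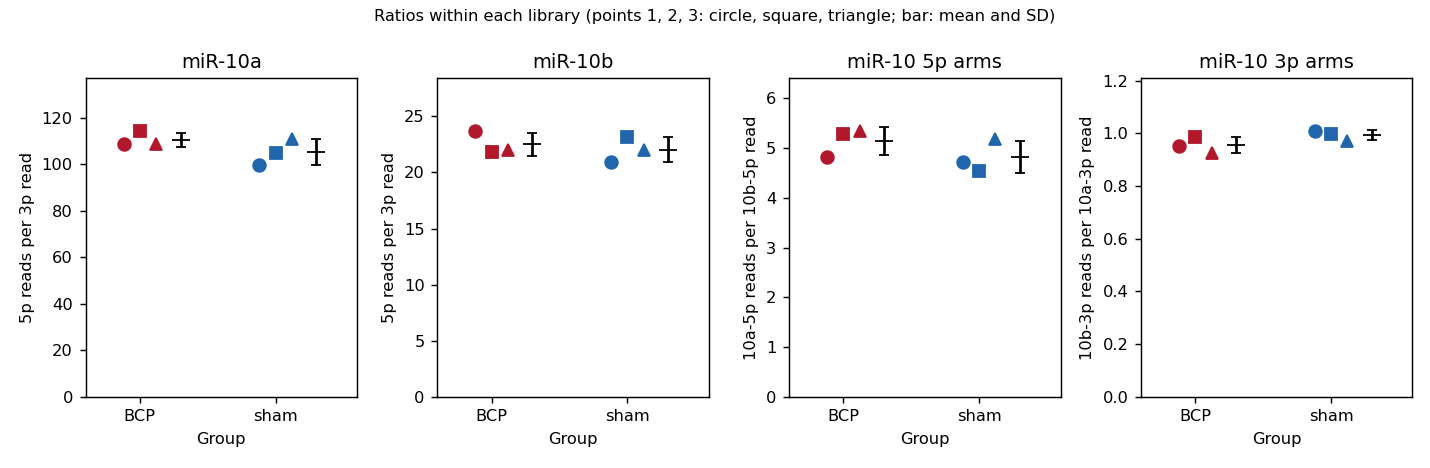
Ratios of read counts within each library for BCP (red) and sham-operated rats (blue), with the mean and SD of 3 rats beside the points and each y axis starting at 0. The panels give the 5p to 3p ratio of miR-10a (99.6 to 114) and of miR-10b (20.9 to 23.6), the ratio of the 5p arms (4.55 to 5.34) and that of the 3p arms (0.925 to 1.01).

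Whether the ratios differed between BCP and sham-operated rats was tested for 4 of them, since a ratio within a library does not depend on the normalization. The 5p to 3p ratio of miR-10a was 110 ± 3.16 in the BCP group and 105 ± 5.57 in the sham-operated group (SD, n = 3 rats each; two-sided exact permutation test on the log2 ratio, p = 0.3, adjusted p = 0.6 over the 4 ratios). That of miR-10b was 22.5 ± 0.995 and 22.02 ± 1.10 (same exact permutation test, p = 0.7, adjusted p = 0.7). The ratio of miR-10b-5p to miR-10a-5p was 0.195 ± 0.0112 in the BCP group and 0.208 ± 0.0138 in the sham-operated group (same exact permutation test, p = 0.2, adjusted p = 0.6). The ratio of miR-196b-5p to miR-196a-5p was 0.738 ± 0.0956 and 0.701 ± 0.0624 (same exact permutation test, p = 0.7, adjusted p = 0.7). In all 4 the groups overlapped, and 3 rats against 3 cannot give a p below 0.1.

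rno-miR-196a-5p, from HoxC, was the highest of the miR-196 strands and varied between the rats of each group. BCP rats 1 to 3 gave 354, 322 and 266 CPM, and sham-operated rats 1 to 3 gave 326, 335 and 253 CPM. The lowest rat of each group was number 3, and the groups overlapped over most of their range. The spread was 14.2% of the mean in the BCP group and 14.7% in the sham-operated group, where counting error would give 1.41%. BCP and sham-operated rats differed by 0.04 on the log2 scale, with a 95% interval from -0.32 to 0.41 (adjusted p = 0.951, edgeR's quasi-likelihood test).

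rno-miR-196b-5p, from HoxA, stood below miR-196a-5p in each library. BCP rats 1 to 3 gave 229, 235 and 223 CPM, and sham-operated rats 1 to 3 gave 222, 218 and 195 CPM. The lowest BCP rat lay just above the highest sham-operated rat, so the groups did not overlap, and this also held with total counts. The difference came to 0.11 on the log2 scale, with a 95% interval from -0.14 to 0.36 (adjusted p = 0.712, same edgeR fit).

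miR-196c-5p, from the far end of HoxB, had few reads. BCP rats 1 to 3 gave 93, 60 and 52 counts, and sham-operated rats 1 to 3 gave 62, 77 and 54. This came to 3.88 ± 0.568 CPM in the BCP group and 4.38 ± 0.730 CPM in the sham-operated group (SD, n = 3 rats each), with overlap. The spread, 14.6% and 16.7% of the mean, was near the 12.3% that counting error alone would give. Although miR-10a and miR-196c lie in the same cluster, a library held between 3068 and 6157 reads of miR-10a-5p per read of miR-196c-5p. The other arm, miR-196c-3p, had 20 to 45 counts per library, and there were 1.63 to 3 reads of the 5p arm per read of the 3p arm. This ratio was far from those of miR-196b and miR-196a, whose 3p arms had 4 to 13 and 1 to 6 counts against 2917 to 8339 counts of their 5p arms.

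For rno-miR-615, from within the span of Hoxc5, BCP rats 1 to 3 gave 285, 150 and 163 counts, and sham-operated rats 1 to 3 gave 155, 193 and 177. Normalised, the level was 11.1 ± 0.894 CPM in the BCP group and 11.9 ± 0.761 CPM in the sham-operated group (SD, n = 3 rats each), with overlap. Its gene shares the HoxC cluster with miR-196a, and there were 21.4 to 29.3 reads of miR-196a-5p per read of miR-615.

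By level, the order in each library was miR-10a-5p, miR-10b-5p, miR-196a-5p, miR-196b-5p, the 3p arms of the miR-10 pair, miR-615, miR-196c-5p, miR-196c-3p, and last the 3p arms of miR-196b and miR-196a. The neighbours whose ranges over the 6 libraries overlapped were miR-10a-3p and miR-10b-3p, and miR-196b-3p and miR-196a-3p. The ranges of all other neighbours did not overlap. CPM here counts reads of strands of nearly equal length. How well each sequence was captured in the libraries was not tested.

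Between BCP and sham-operated rats, none of the members passed the test. With edgeR's quasi-likelihood test at an adjusted p below 0.05 and an absolute log2 fold change above 0.8, 16 of 459 tested miRNAs were called, or 3.49%, with 0 of 459 (0%) lower in the BCP group, and 0 of the 9 members that passed the filter on low counts were among them. Without the fold threshold 18 of 459 passed, or 3.92%, again with 0 members. At both thresholds DESeq2, edgeR's exact test, its likelihood ratio test and limma-voom called 19, 24, 25 and 16 of 459. In each, 0 of the 9 members passed the adjusted threshold, with or without the fold threshold. At an unadjusted p below 0.05 there were 60 of 459, or 13.1% (10.7% higher and 2.4% lower in the BCP group), and 0 of the 9 members. The log2 fold changes of the 9 ran from -0.23 to 0.17, with 6 above 0 and 3 below and a median of 0.05, beside a median of -0.0034 over all tested miRNAs. The adjusted p ran from 0.538 for miR-10a-5p to 0.951 for miR-196a-5p.

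The 4 miR-10 arms all had log2 fold changes above 0, from 0.05 for miR-10b-3p to 0.17 for miR-10a-5p. Without BCP rat 3 they ran from -0.0188 for miR-10b-3p to 0.0970 for miR-10a-5p. miR-196c-5p and miR-196c-3p had values of -0.18 and -0.23, and miR-615 a value of -0.09, with 95% intervals that included 0. The widest interval was that of miR-196c-3p, from -0.75 to 0.29, and the intervals of all 9 lay inside -0.8 to 0.8. These intervals are those of the quasi-likelihood fit with all 6 rats. For miR-196c-3p the fit without sham-operated rat 1 gave -0.34, and intervals of other tools were not computed. Differences within the intervals could not be told from 0 with 3 rats a group. Groups that did not overlap were found for 2 of the 9, miR-10b-5p and miR-196b-5p, both higher in the BCP group. Over all tested miRNAs the share was 18.5%, of which 13.3% of the miRNAs were higher and 5.23% lower in the BCP group. With scaling to total counts or by edgeR's RLE method, 1 of the 9, miR-196b-5p, had groups that did not overlap, and the share over all tested miRNAs was 20.3%. The other 2 members, miR-196a-3p and miR-196b-3p, did not pass the filter, had 1 to 6 and 4 to 13 counts, and were not tested.

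**Figure D4:**
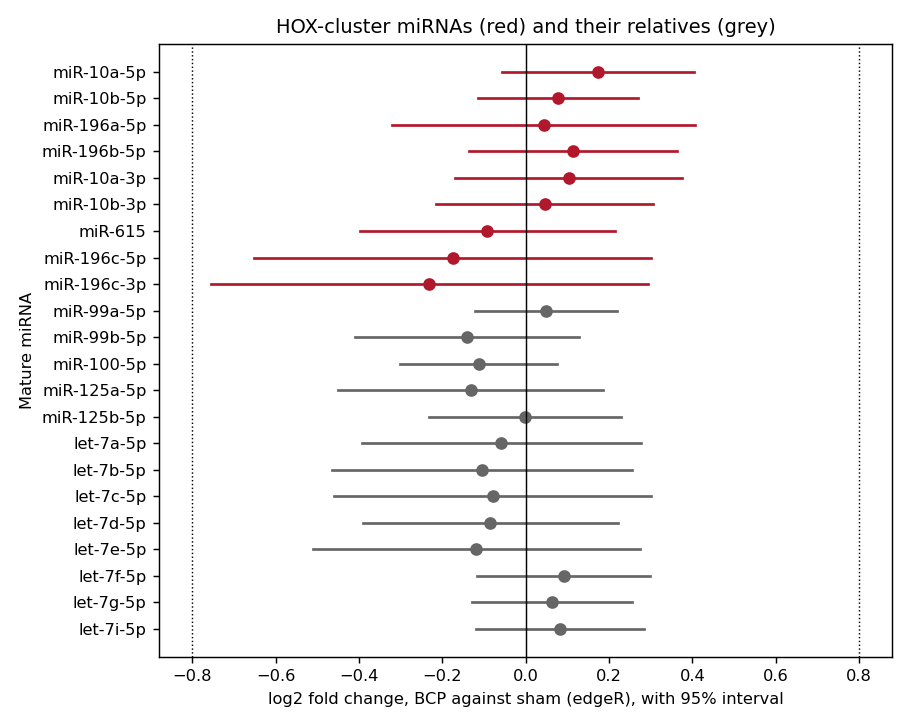
Log2 fold change of BCP against sham-operated rats on the x axis, with its 95% interval from edgeR's quasi-likelihood fit, for the 9 tested members (red) and their 13 tested relatives (grey). Dotted lines mark 0.8 on either side, and all intervals crossed 0 and lay inside those lines.

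The miR-10 and miR-99/100 miRNAs belong to 1 old sequence family, and miR-99/100 genes lie in shared clusters with let-7 and miR-125 genes, so these lists were taken for comparison. miR-100-5p is shown for its likeness to miR-10a-5p, and let-7a-5p for the letters it shares with miR-196.
rno-miR-100-5p: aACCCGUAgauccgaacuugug
rno-let-7a-5p: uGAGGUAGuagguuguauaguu
Over 22 aligned nucleotides miR-10a-5p and miR-100-5p differed at C3A, U6C and U18C, counted from the 5′ end of miR-10a-5p, so that their seeds were not the same. The seed letters of miR-196, AGGUAGU, occurred in 8 strands of the let-7 family from position 3, which is 1 base later than in miR-196. The relatives were more abundant than the members as summed lists, although miR-10a-5p stood above miR-125a-5p, miR-99b-5p and 3 of the 8 tested let-7 strands in the mean of the sham-operated group. The summed level of miR-99a-5p, miR-99b-5p and miR-100-5p was 159543 to 167655 CPM, and that of the let-7 strands 185235 to 225968 CPM over the 6 libraries. The 3 miR-196 strands with the same letters at their seed summed to 452 to 587 CPM.

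As with the members, 0 of the 13 tested relatives were called, 0 of 3 in the miR-99/100 list, 0 of 2 in the miR-125 list and 0 of 8 in the let-7 list, with median log2 fold changes of -0.11, -0.07 and -0.07. miR-99a-5p, the most abundant, had a log2 fold change of 0.05 (adjusted p = 0.819, edgeR's quasi-likelihood test), and that of miR-100-5p was -0.11 (adjusted p = 0.623, same fit). The ninth let-7 relative, miR-98-5p, was listed at 0 in every library.

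Across libraries the members did not move as 1 block. miR-10a-5p and miR-10a-3p were highest in BCP rat 3, by 0.21 and 0.20 on the log2 scale above their mean over the 6 libraries, and lowest in sham-operated rat 2. miR-196a-5p and miR-196c-5p were low in rat 3 of either group, at -0.21 and -0.28 in BCP rat 3 and at -0.28 and -0.16 in sham-operated rat 3. As a result there were 76.2 reads of miR-10a-5p per read of miR-196a-5p in BCP rat 3 and 70.2 in sham-operated rat 3, against 46.4 to 57.6 in the other 4 libraries. This split the libraries in another way than the treatment did. Over all 459 tested miRNAs, the deviations of rat 3 of both groups from their group means correlated at 0.670. Those of the rats numbered 1 and 2 correlated at 0.0507 and -0.444. The likeness of the rat 3 libraries was thus not limited to the members.

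Some other measures, though not all of those below, also set rat 3 of both groups apart. The summed level of 6 vascular and mesenchymal markers was 30273 CPM in BCP rat 3 and 28951 CPM in sham-operated rat 3, and 21341 to 27289 CPM in the other libraries. This sum was mostly miR-126a-3p and miR-143-3p, and miR-145-5p of the same list was lowest of its group in both, at 396 and 423 CPM. In the same 2 libraries the summed miR-125 level was lowest, at 46467 and 45225 CPM against 51003 to 55777 CPM. Oligodendrocyte markers summed to 12904 CPM in BCP rat 3 and 14182 CPM in sham-operated rat 3, each the lowest of its own group. BCP rat 2, at 13542 CPM, lay below sham-operated rat 3, so this sum did not set the 2 libraries apart. That sum was nearly all miR-219a-2-3p, and the other 2 markers, miR-219a-5p and miR-338-3p, were highest of the sham-operated group in its rat 3. The total counts of these 2 libraries, 16035816 and 14154479, were inside the range of the others. The part of these cell types in the difference between miR-10a and miR-196a was not tested.

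**Figure D5:**
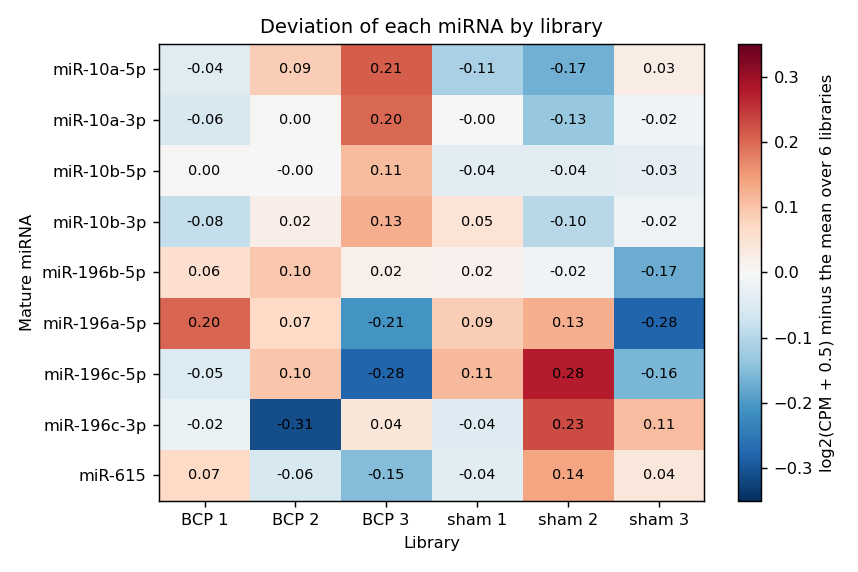
Deviation of each tested member from its own mean over the 6 libraries, in log2(CPM + 0.5), by library on the x axis and miRNA on the y axis, red for above and blue for below. In BCP rat 3 the miR-10 arms were above their means and miR-196a-5p and miR-196c-5p below, and for 7 of the 9 miRNAs the values of the groups overlapped. Over all 459 tested miRNAs, with the same TMM scaling, the groups did not overlap for 18.5%.

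The likeness of members was measured as the root mean square difference of these deviations over the 6 libraries. The closest pair was miR-10a-3p and miR-10b-3p, which come from different clusters, at 0.0417, followed by the arms of miR-10b at 0.0574. The arms of miR-10a stood at 0.0615 from each other and the 5p arms of miR-10a and miR-10b at 0.0875. miR-196a-5p was closest to miR-196c-5p, at 0.133, and to miR-196b-5p, at 0.135. The widest gap was between miR-10a-5p and miR-196c-5p, at 0.296, and these are from the same cluster. Counting error was 12.3% for the latter, against 0.188% for the former.

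Outside the group, the 3 miRNAs most like miR-10a-5p by this measure were miR-181c-5p, miR-9a-5p and miR-26a-5p, at 0.0553 to 0.0636, where the median over all other tested miRNAs was 0.246. For miR-10b-5p they were miR-221-5p, miR-99a-5p and miR-350, at 0.0345 to 0.0457. For miR-196a-5p they were miR-324-3p, miR-7a-2-3p and miR-206-3p, at 0.0463 to 0.0727, and for miR-196b-5p let-7i-5p, miR-93-5p and miR-148b-3p, at 0.0438 to 0.0532. The miR-10 3p arms both had miR-24-3p as their nearest, at 0.0484 for miR-10a-3p, with miR-411-3p and miR-9a-5p next, and at 0.0256 for miR-10b-3p, with miR-665 and miR-340-3p next. For miR-615 they were miR-874-3p, miR-674-5p and miR-329-5p, at 0.0518 to 0.0622. For miR-196c-5p they were miR-34c-3p, miR-298-3p and miR-382-5p, at 0.0732 to 0.0872, and for miR-196c-3p miR-212-3p, miR-331-3p and miR-673-3p, at 0.0851 to 0.0942. For every tested member but miR-10a-3p, the nearest miRNA outside the group was closer than any other member. The measure is not scaled to spread, so miRNAs that vary little lie close together. It describes these 6 libraries only.

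The spread between rats of 1 group was small for most members. The standard deviation within groups of log2(CPM + 0.5) ran from 0.0452 for miR-10b-5p to 0.216 for miR-196a-5p, with a median of 0.108 over the 9, beside 0.194 over all 459 tested miRNAs and 0.148 over the 157 tested miRNAs at or above the sham level of the lower miR-10 3p arm. With TMM scaling, miR-10b-5p was the 7th lowest of the 459. miR-196b-5p was the 35th lowest at 0.0763, whereas miR-196a-5p, with the same seed and a similar level, was the 264th.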

How the data were processed

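The authors trimmed the reads with the FASTX Toolkit, kept those within a set length range, aligned them to the rat assembly Rnor_6.0 (Bowtie2 2.2.3 in the submitters' processing notes) and identified known miRNAs by length and miRBase annotation. The length stated for known miRNAs ends below the 23 nucleotides that RefSeq gives for miR-10a-5p and miR-196b-3p, and the part of this rule in their counts was not tested. The deposited values are raw read counts for 753 mature miRNAs, and how reads that fit several miRNAs were assigned is not given in the sources used here. Columns left without a sample numbered 0.

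From these counts, edgeR 4.0.16 (R 4.3.3) was run with filterByExpr (minimum count 10, leaving 459 miRNAs), TMM factors and its quasi-likelihood test. P-values were adjusted after Benjamini and Hochberg, and miRNAs were called at 0.05 with an absolute log2 fold change above 0.8. P-values cover the spread between these rats only. In the edgeR fits the spread of a miRNA is estimated with information from all tested miRNAs, so it is not its own alone. CPM uses the effective library sizes of that fit. Intervals use the fit's standard errors. Ratios were tested by two-sided exact permutation over libraries. Alternatives used DESeq2 1.42.0, limma 3.58.1, other filters and scalings, a replicate block, and leaving out each rat.

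Members, relatives and marker lists were chosen with earlier results of these data known. The named miRNAs are all members, the relatives, the 3 tested miRNAs most like each tested member, and markers by list. 1 marker name, miR-486, had no match in the table and was not used. The fit was also run on simulated counts with the same spread for every miRNA and known changes far larger than those of the members. This check does not show whether differences of the members' size could be found. No library was a copy of another, as the chi-square for any pair of the 6, divided by its degrees of freedom, was 50.8 or more. Total counts per library were 13464349 to 23770677, and counting error is a lower limit because PCR copies were not told apart. Sequences and gene order are from RefSeq (GRCr8), another assembly than the authors', so no coordinates are given.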

Additional observations from a re-analysis of the deposited data

How the results depend on the processing

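Under every alternative run, 0 members were called, and the smallest adjusted p of any member was 0.234, for miR-10a-5p without sham-operated rat 3. With all 6 rats, the other filters, scalings, tests and tools kept the sign of all 9 tested members. The 4 ratios were recomputed with 1 count added to each count, which kept their sign, and with the replicate block, which leaves the difference as it is by construction. Leaving out 1 rat turned the sign of values near 0 in 6 cases. miR-10b-3p ranged from -0.0188 to 0.0815 on the log2 scale, miR-196a-5p from -0.11 to 0.14 (with -0.0693 without BCP rat 1 and -0.107 without sham-operated rat 3), the arm ratio of miR-10b from -0.0049 to 0.0675 and the ratio of miR-196b-5p to miR-196a-5p from -0.0242 to 0.162. The others kept their sign but moved by over 1.5 times. miR-10a-5p ranged from 0.0970 (without BCP rat 3) to 0.219, miR-10a-3p from 0.0139 (without BCP rat 3) to 0.140, miR-10b-5p from 0.0291 (without BCP rat 3) to 0.0984 and miR-196b-5p from 0.0259 (without sham-operated rat 3) to 0.129. miR-196c-5p ranged from -0.331 (without sham-operated rat 3) to -0.0617 (without sham-operated rat 2), miR-196c-3p from -0.343 (without sham-operated rat 1) to -0.115 (without BCP rat 2) and miR-615 from -0.174 (without BCP rat 1) to -0.0479 (without BCP rat 3). The arm ratio of miR-10a ranged from 0.0332 to 0.110 and the ratio of miR-10b-5p to miR-10a-5p from -0.149 to -0.0552.

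The number of miRNAs called over the whole table, 16, was 25 with edgeR's likelihood ratio test and ranged from 8 to 20 when 1 rat was left out, namely 8 without BCP rat 2, 10 without BCP rat 3 and 9 without sham-operated rat 1. The cause was not tested. The same numbers in the 2 groups mark different animals. The correlations of their deviations from the group means were 0.0507, -0.444 and 0.670 for numbers 1, 2 and 3, so the numbers were not taken as pairs. With the replicate block 18 miRNAs were called, 15 of them shared with the 16, the log2 fold changes of the members kept their sign, and the smallest adjusted p of a member was 0.497. For miR-615 and the arms of miR-196c the alternatives were chosen after seeing the data, as was the check of overlap under other scalings. Depth limited miR-196a-3p, miR-196b-3p and both arms of miR-196c.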
